A study of Drosophila melanogaster with 14 samples.

Results

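Open chromatin of Drosophila melanogaster wing discs was compared between damaged and control tissue at 0 h, the first time point of a course that starts with the induction of apoptosis. The comparison used 4 of the 14 libraries of the series, 2 from regenerating discs and 2 from undamaged control discs. Peaks of the nucleosome-free fragments of these 4 libraries were merged where they overlapped or touched, which gave 27435 regions. Peaks of all 14 libraries gave 33226. The mononucleosome peaks were merged in the same way into 15523 regions, against 19757 for all 14 libraries. A region was called gained where both regenerating libraries and neither control library had a peak in it, and lost where the reverse held.

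Each library came from 10 wing discs of the third larval instar, profiled by ATAC-seq. The assay uses a transposase that inserts adapters where DNA is accessible. Apoptosis had been induced in the regenerating discs, and the control discs were kept alike but without it. The protocol speaks of a regeneration genotype and a control genotype. Neither the driver, the transgene nor the agent that kills the cells is named, so damage and genotype cannot be told apart in this comparison. Replicates are known only by number, so the p-values given here reflect only how these libraries vary, and that variation may be technical. In pooled discs, fewer cells with an open site and less opening per cell cannot be told apart. The same 2 kinds of disc at 15 h and 25 h, and 2 L3 libraries, from undamaged discs of larvae that are not part of the course, were used here only to follow the 0 h regions.

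A wing disc is an epithelial sac that forms the adult wing and thorax, and it can regrow after part of it has been killed. Dying cells release signals, among them reactive oxygen species, that switch on the JNK cascade in neighbours. JNK acts through the AP-1 factors Jra and kay, and its known targets include the phosphatase puc, the matrix protease Mmp1 and the hormone Ilp8, while upd cytokines act through JAK/STAT. Short ATAC-seq fragments mark nucleosome-free DNA such as active promoters and enhancers, and longer ones span a nucleosome.

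The regions below were among the highest ranking gained and lost nucleosome-free regions at 0 h and carry the patterns described later. They show a region with no peak in any control library (CR41320), a gained start of a gene (CG16888), a pair with shared repeated sequence (rg and CR14578), a start with matches to 2 promoter motifs (Dpm3), the strongest lost region (Best4), a lost region in which the mononucleosome peaks went the other way (lncRNA:CR46253) and a lost start that came back as a gained one at 25 h (Nufip). The plus strand of Release 6 (dm6) is shown from the RefSeq copy, each under its nearest gene. Capitals mark matches, on either strand, to 9 motifs that were each counted alone even where matches overlapped. Stress and signalling factors were represented by AP-1, searched as TGANTCA, by STAT, searched as TTCNNNGAA, and by C/EBP, searched as TTGCNNAA. Scalloped, the partner of the growth regulator Yorkie, was searched as CATTCC, and homeobox factors, a large class of patterning proteins, as TAATTA. Among factors of open promoters, GAGA factor was searched as GAGAG, the pioneer factor Zelda as CAGGTAG, DREF as TATCGATA and M1BP as GGTCACACT.
CR41320, gained, chr3L:26161192-26161370: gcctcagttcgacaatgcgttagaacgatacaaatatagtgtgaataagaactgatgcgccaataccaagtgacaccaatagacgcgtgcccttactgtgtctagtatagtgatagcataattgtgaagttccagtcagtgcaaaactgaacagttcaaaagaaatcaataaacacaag
CG16888, gained, chr2L:13813128-13813298: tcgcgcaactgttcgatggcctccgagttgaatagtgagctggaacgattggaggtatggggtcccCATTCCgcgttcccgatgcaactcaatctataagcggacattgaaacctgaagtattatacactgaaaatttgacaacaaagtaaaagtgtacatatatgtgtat
rg, gained, chrX:5100509-5100637: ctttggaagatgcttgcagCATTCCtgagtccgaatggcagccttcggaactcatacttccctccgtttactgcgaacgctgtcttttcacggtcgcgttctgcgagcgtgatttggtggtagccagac
CR14578, gained, chr3L:27826492-27826614: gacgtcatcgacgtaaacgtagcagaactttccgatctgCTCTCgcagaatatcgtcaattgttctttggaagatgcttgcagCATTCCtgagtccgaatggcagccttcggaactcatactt
Dpm3, gained, chr3R:13403241-13403394: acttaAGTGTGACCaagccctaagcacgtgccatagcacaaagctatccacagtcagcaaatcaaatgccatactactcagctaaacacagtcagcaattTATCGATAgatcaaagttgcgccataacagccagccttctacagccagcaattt
Best4, lost, chr3L:15297326-15297537: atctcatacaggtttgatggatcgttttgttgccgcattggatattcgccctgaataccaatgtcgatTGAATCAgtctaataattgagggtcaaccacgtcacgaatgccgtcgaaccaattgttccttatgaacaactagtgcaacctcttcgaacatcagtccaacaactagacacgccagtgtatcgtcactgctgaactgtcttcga
lncRNA:CR46253, lost, chr2L:23239177-23239275: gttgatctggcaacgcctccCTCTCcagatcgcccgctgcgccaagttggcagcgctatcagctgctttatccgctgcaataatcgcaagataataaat
Nufip, lost, chr3L:18748325-18748416: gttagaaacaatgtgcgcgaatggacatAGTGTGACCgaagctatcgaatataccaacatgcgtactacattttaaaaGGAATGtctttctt

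The regions of rg and CR14578 shared an identical run of 59 bases, which covers the Scalloped match of both. The Dpm3 region, 190 bp from the start of a gene for a mannosyltransferase subunit, held both the DREF and the M1BP letters, and the Nufip region held the M1BP letters. The Best4 region held the AP-1 letters. M1BP and DREF bind promoters of housekeeping genes. Over all 27435 regions, the M1BP letters occurred within 100 bp of the summit in 2.48% and the DREF letters in 3.35%.

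The 4 lists differed in length and depth. Nucleosome-free peaks numbered 19174 and 21703 in control replicates 1 and 2, and 22016 and 24139 in regenerating replicates 1 and 2. Peak lists hold no read depth, but the pile-up at each summit could be solved from the authors' fold and p. The most frequent background so obtained was 1.62 and 2.83 fragments in the control libraries and 2.86 and 3.10 in the regenerating ones. Control replicate 1 was thus the shallowest nucleosome-free library, and 2065 regions were missing only there, against 812 missing only in control replicate 2, 503 only in regenerating replicate 1 and 167 only in regenerating replicate 2. For mononucleosome peaks the backgrounds were 8.93, 8.54, 6.42 and 8.36 in the same order, so that regenerating replicate 1 was the shallowest there.

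Of 22569 nucleosome-free regions with a peak in at least 2 of the 4 libraries, 15727 had one in all 4. In all, 1244 were gained (5.51%) and 193 were lost (0.855%). A further 1858 had a peak in 1 library of each kind. This pattern does not follow the groups, and these regions serve below as a comparison of similar strength. Gained regions were narrow and weak. Their median width was 142 bp, against 262 bp for regions in all 4 libraries and 130 bp for those in 1 of each, and the median percentile of the authors' fold within its own list was 21.3, against 62.7 and 19.4. When each list was cut to the length of the shortest, 587 regions were gained and 432 lost. When a region had to remain callable at the depth of every library without it, allowing for counting error and the local background, 144 were gained and 118 lost. The excess of gained over lost regions moved with list length and depth, as the plot of counts under each filter shows. A region without a peak did not pass the authors' threshold and need not be closed.

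**Figure D1:**
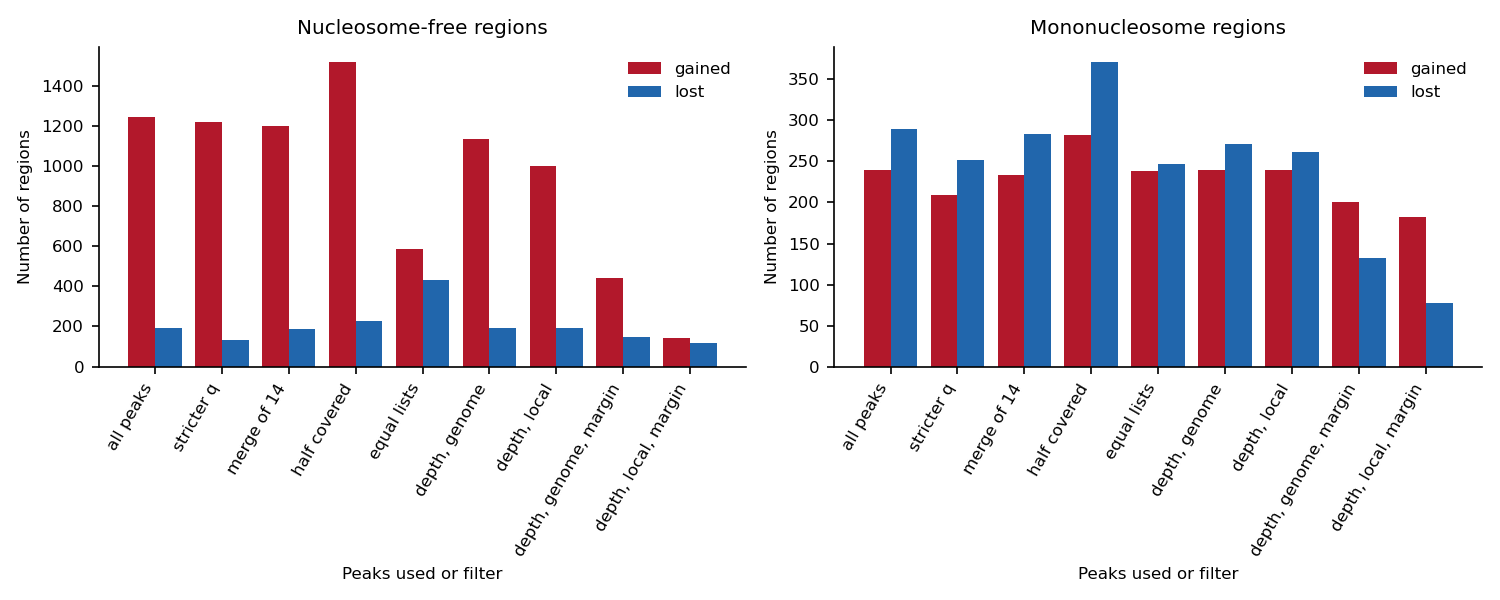
Bars give the number of regions gained (red) and lost (blue) in regenerating discs at 0 h, for nucleosome-free (left) and mononucleosome peaks (right), under each choice of peaks or filter. With all peaks 1244 nucleosome-free regions were gained and 193 lost, and with the local depth filter and a counting margin 144 and 118.

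The strongest lost region lay in a gypsy5 element, a retrotransposon of the gypsy group, 1421 bp from the start of Best4, a bestrophin-type chloride channel gene (chr3L:15297326-15297537, intergenic). The authors' fold was 46.8 and 55.9 in control replicates 1 and 2, from summit pile-ups of 163 and 212 fragments, at the 99.99th percentile of either list. Neither regenerating library had a peak there. All 4 later control libraries had it at folds of 35.2 to 49.4, both L3 libraries at 49.8 and 55.0, and none of the 4 later regenerating libraries had it. The mononucleosome peaks parted in the same way, with folds of 23.1 and 20.9 in the control libraries and no peak in regenerating discs. Of the 50-base words of the nucleosome-free region 69.3% occurred more than once in the genome, and 82.4% of those of the mononucleosome region. Either peak may thus stand for another copy.

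Other high-ranking lost regions repeated this over the time course. The 1360 elements in introns of DIP-lambda, a cell surface protein gene, and of CG41378 had a peak in all 6 control and both L3 libraries and in none of the 6 regenerating ones. The nucleosome-free peak over the lncRNA:CR46253 start (chr2L:23239177-23239275), which lies in Rt1b sequence, showed the same pattern, with folds of 8.78 and 7.05 in the 0 h controls. The mononucleosome peak that overlaps it (chr2L:23239196-23239450) was the reverse. It had folds of 6.34 and 7.48 in regenerating replicates 1 and 2, was present in all 6 regenerating libraries and absent from all 6 control and both L3 libraries. All of the 50-base words of the nucleosome-free region and 77.2% of those of the mononucleosome region occurred elsewhere in the genome too, so either peak may stand for another copy.

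Over the later libraries, the other high-ranking lost regions at gene starts were followed one by one. The start of CG6983 (chr3L:8449369-8449494) had folds of 8.02 and 7.58 in the 0 h controls, was present in all 6 control and both L3 libraries, and came back in 1 of the 4 later regenerating libraries, at a fold of 5.35. The start of FIG4, a phosphoinositide phosphatase, had folds of 7.64 and 6.53 in the 0 h controls and was found in all 4 later regenerating libraries at 4.94 to 7.71. The start of Sod2, the mitochondrial superoxide dismutase (chr2R:16773871-16773965), had folds of 6.87 and 6.79 in the 0 h controls. At 25 h the order was reversed, with 8.28 and 6.21 in regenerating discs and no peak in the controls. Nufip, which acts in snoRNP assembly, showed the same change of order, from 6.49 and 6.53 in the 0 h controls to 5.02 and 6.0 in regenerating discs at 25 h. Mononucleosome peaks overlapped both starts in all 4 libraries at 0 h. Their percentiles were 81.1 and 89.3 in controls and 85.8 and 96.8 in regenerating discs at Nufip. At Sod2 they were 22.7 and 67.25 against 84.9 and 11.2.

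The highest-ranking gained region was a TART-C telomere retrotransposon on chromosome 4 (chr4:1288522-1289093, nearest start Cadps at 56639 bp). Its folds were 25.4 and 30.2 in regenerating replicates 1 and 2 at 0 h, from pile-ups of 123 and 190, and neither control library had a peak. In the later libraries it was found in both kinds of disc, at 18.6 to 24.9 in regenerating and 6.74 to 10.7 in control discs, and at 6.89 and 6.96 in L3. Its mononucleosome signal had a peak in all 4 libraries at 0 h, at folds of 3.32 and 4.51 in controls and 14.03 and 14.15 in regenerating discs. The group values did not overlap. All of the 50-base words of the nucleosome-free region occurred more than once in the genome, so its peak may stand for another copy.

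Repeated sequence was common in the next ranks. An intronic blood copy in CG43163 (chr3L:8505446-8505579) had folds of 13.5 and 15.5, an intron of l(3)80Fg (chr3L:25971149-25971356) 14.2 and 15.4, a springer copy inside CG15465 (chrX:5100509-5100637, intronic, named by its nearest start, rg) 11.1 and 13.7, and a gypsy element in an intron of lovit, a vesicular transporter gene, 11.9 and 9.51. Each of them had a peak in all 6 regenerating libraries and in 1 to 3 of the 6 control libraries. An unannotated stretch near the tip of the X (chrX:39297-40320) had folds of 14.3 and 13.3, and the region near CR41320 (chr3L:26161192-26161370) 10.1 and 12.4. Both were found in 6 of 6 regenerating and 0 of 6 control libraries. The 5S rRNA gene copy 5SrRNA:CR33441, at 7.76 and 13.2, belongs to a tandem array whose copies cannot be told apart.

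Gained regions in sequence found once in the genome were fewer among the top ranks. CG16888 had a region over its start and a coding exon (chr2L:13813128-13813298), with folds of 8.02 and 10.0 at 0 h, 4.72 to 6.42 in the 4 later regenerating libraries, none in the 6 control libraries and 3.80 in 1 of the 2 L3 libraries. A region 1720 bp from tHMG2, an HMG-box gene (chr3R:22494879-22495328), had folds of 8.02 and 9.51 at 0 h and 5.77 to 8.39 later in regenerating discs, with no peak in any control or L3 library. Its mononucleosome peak had folds of 7.55 and 6.19 and showed the same pattern over all 14 libraries. Dpm3 (chr3R:13403241-13403394) had folds of 9.91 and 9.06 at 0 h and 6.17 to 9.40 in later regenerating discs, with a peak in 1 of 6 control libraries. The regions at the starts of CG2260 and CG10947, at 8.02 and 9.27 and at 7.76 and 10.98, differed from these. All 4 later control libraries and both L3 libraries had them too, at 6.52 to 8.66 and at 7.23 to 9.89 in the controls.

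**Figure D2:**
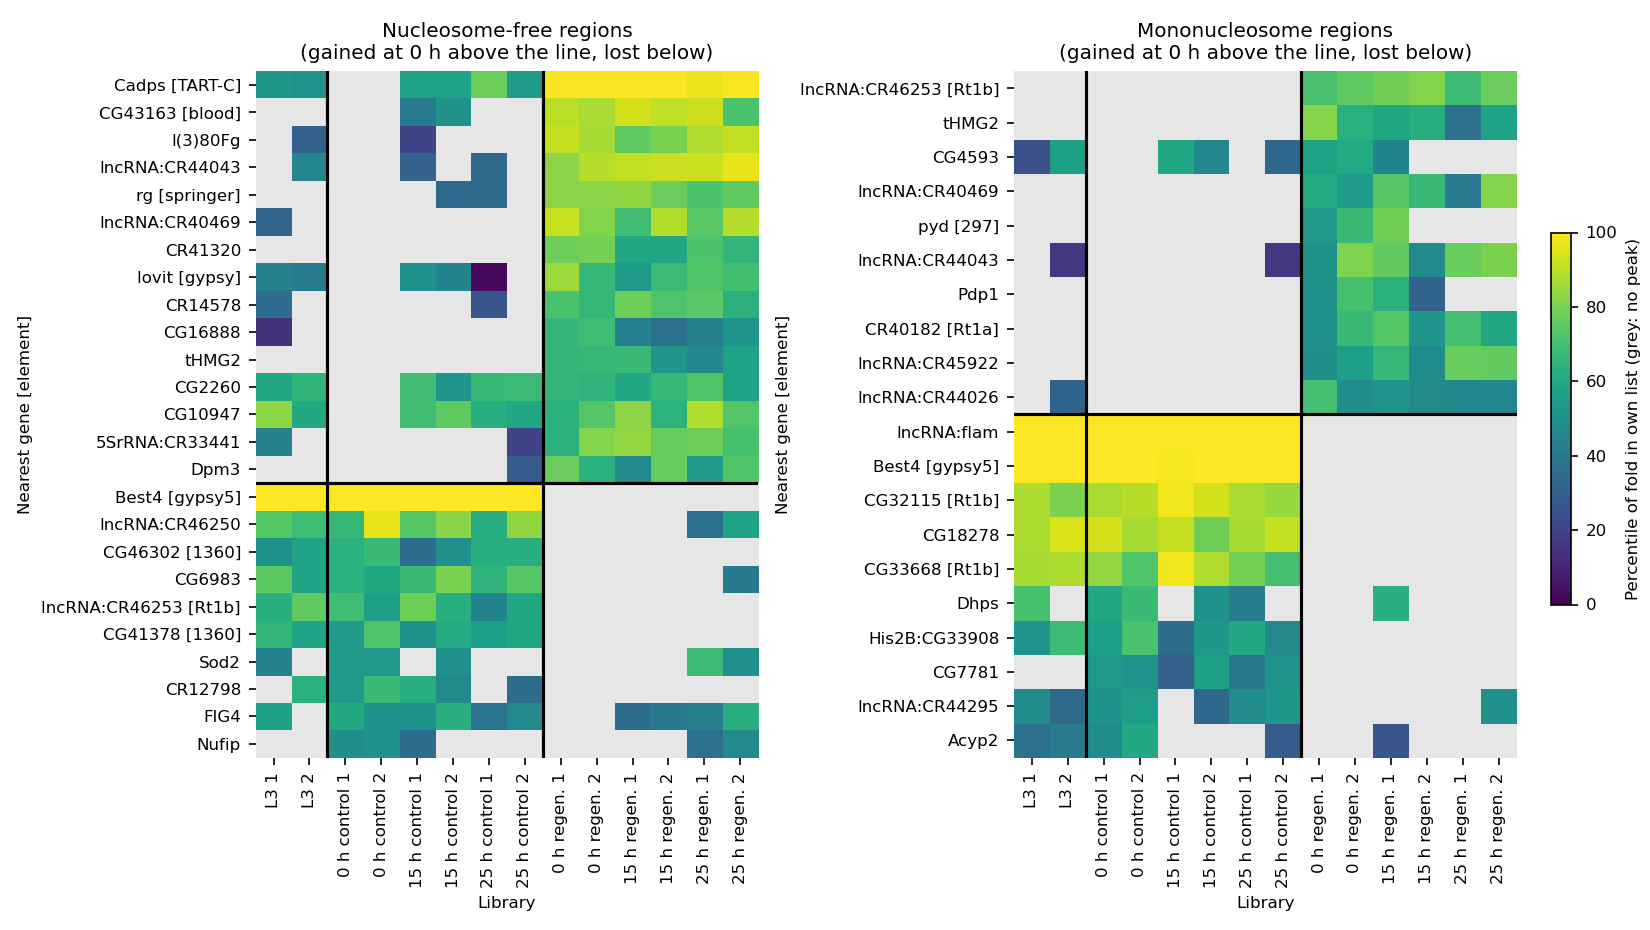
Colour gives the percentile of the authors' fold of a region within each library's own list, from 0 to 100, and grey means no peak, for the 15 gained and 10 lost nucleosome-free regions (left) and the 10 gained and 10 lost mononucleosome regions (right) of highest rank at 0 h. Columns are L3, control and regenerating libraries, and the Best4 region is at the top of the scale in all control and L3 libraries and grey in all regenerating ones.

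The rank of a region at 0 h went with 2 properties that its choice did not use. The first was sequence. Bases were called repeated where the 50-base word starting there occurred more than once in the reference genome. At least 50% of the words were repeated in 28.3% of the 53 gained regions at or above the 50th percentile of both regenerating lists, in 8.50% of the 306 between the 25th and 50th, and in 2.26% of the 885 below. For lost regions the shares were 66.7% of 9, 22.9% of 35 and 8.72% of 149. Regions in all 4 libraries held 1.70% and those in 1 of each 3.5%. Neither class was split by rank. How reads from repeated sequence were placed is not given in the sources used here, so a peak in such a region may stand for any of its copies, inserted copies that the reference lacks included.

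The second property was constancy. Of the same 53 gained regions, 15 (28.3%) had a peak in all 4 later regenerating libraries and no later control library, as did 12 of 306 (3.92%) and 30 of 885 (3.39%) in the weaker bands. Of lost regions, 4 of 9, 7 of 35 and 2 of 149 had a peak in all 4 later control libraries and no later regenerating library. Among regions in 1 of each, 12 of 1858 (0.646%) showed the first pattern and 5 (0.269%) the second. Their median percentile was 19.4 and they were not split by rank, so they do not match the strength of the upper bands. All 13 nucleosome-free regions lost in this constant way had a peak in both L3 libraries, and 8 of them lay in transposable elements. At least 50% of the words were repeated in 7 of these 13 lost regions. The same held for 13 of the 57 regions gained in a constant way, and for 3 of the 15 in the upper band. Of the 57 gained in a constant way, 38 were absent from both L3 libraries, 9 lay in elements and 7 within 200 bp of a start, among them speck, CG5577 and Sh, a potassium channel gene. A region 3255 bp from eya, a retinal determination gene, and one 1186 bp from the homeobox gene HGTX were among the rest. These differences were there at 0, 15 and 25 h alike, and whether they belong to genotype or to damage cannot be told apart.

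**Figure D3:**
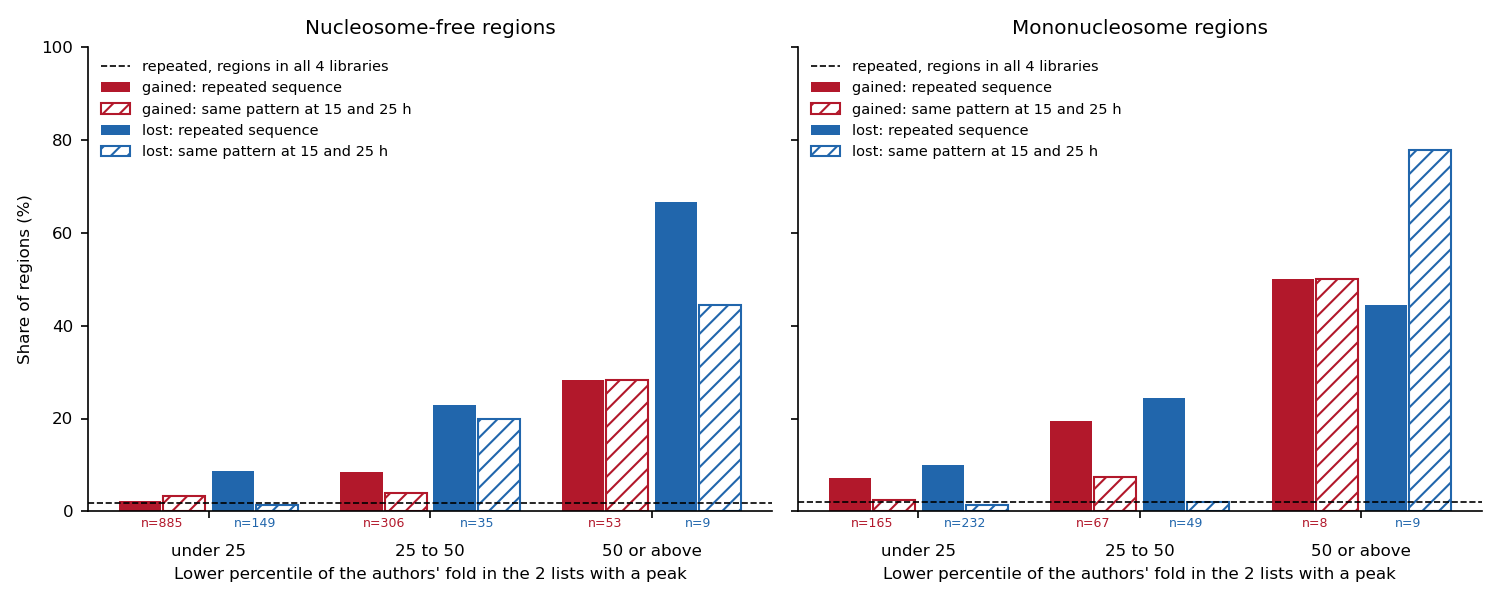
Filled bars give the share of gained (red) and lost (blue) regions whose sequence is mostly repeated in the genome, and hatched bars the share with the same presence pattern in all 8 control and regenerating libraries of 15 and 25 h, by the lower of the percentiles of the authors' fold in the 2 lists with a peak. Both shares were highest at or above the 50th percentile, and the dashed line shows repeated sequence in regions found in all 4 libraries (1.70% and 2.06%).

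Elements overlapped 56 of 1244 gained (4.50%), 22 of 193 lost (11.4%), 48 of 1858 in 1 of each (2.58%) and 234 of 15727 in all 4 (1.49%). The families with most gained regions, picked after their values were seen, are read against 4.53% gained and 0.703% lost of all 27435 regions. Of the 24 regions in springer copies 9 were gained and 0 lost, of the 24 in 3S18 copies 7 and 0, of the 4 in rover copies 3 and 0, and of the 103 in 1360 copies 11 and 8. Copies of a family share sequence and are not independent regions. By nearest start, mamo, a BTB zinc finger gene, had 6 gained among the 26 of its regions found in at least 2 libraries, and CR14578, Pgcl and rg had 5 each among 7, 11 and 8, where 5.51% of all such regions were gained. These genes too were picked for their counts.

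The later libraries, which the definition of gained and lost did not use, were compared by the share of 0 h regions that had a peak in each. Gained nucleosome-free regions had a peak in 56.2, 69.2, 69.1 and 65.4% of cases in the 4 later regenerating libraries and in 40.9, 52.7, 36.4 and 40.9% in the 4 later control libraries. The groups did not overlap. The means were 65.0% ± 6.11 (SD, n = 4) and 42.7% ± 6.95 (SD, n = 4), a difference of 22.2 percentage points (exact permutation test within times over 36 orders, two-sided p = 0.0556, which is the smallest this design allows). Lost regions were the mirror image, at 31.0% ± 3.89 against 50.1% ± 13.4 (SD, n = 4 each, difference -19.2 points, exact permutation p = 0.0556). Their groups did not overlap either, the highest regenerating value being 35.2% and the lowest control value 37.3%. Regions in 1 of each differed by 2.66 points (exact permutation p = 0.778). With lists of equal length the differences were 16.4 and -20.2 points.

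**Figure D4:**
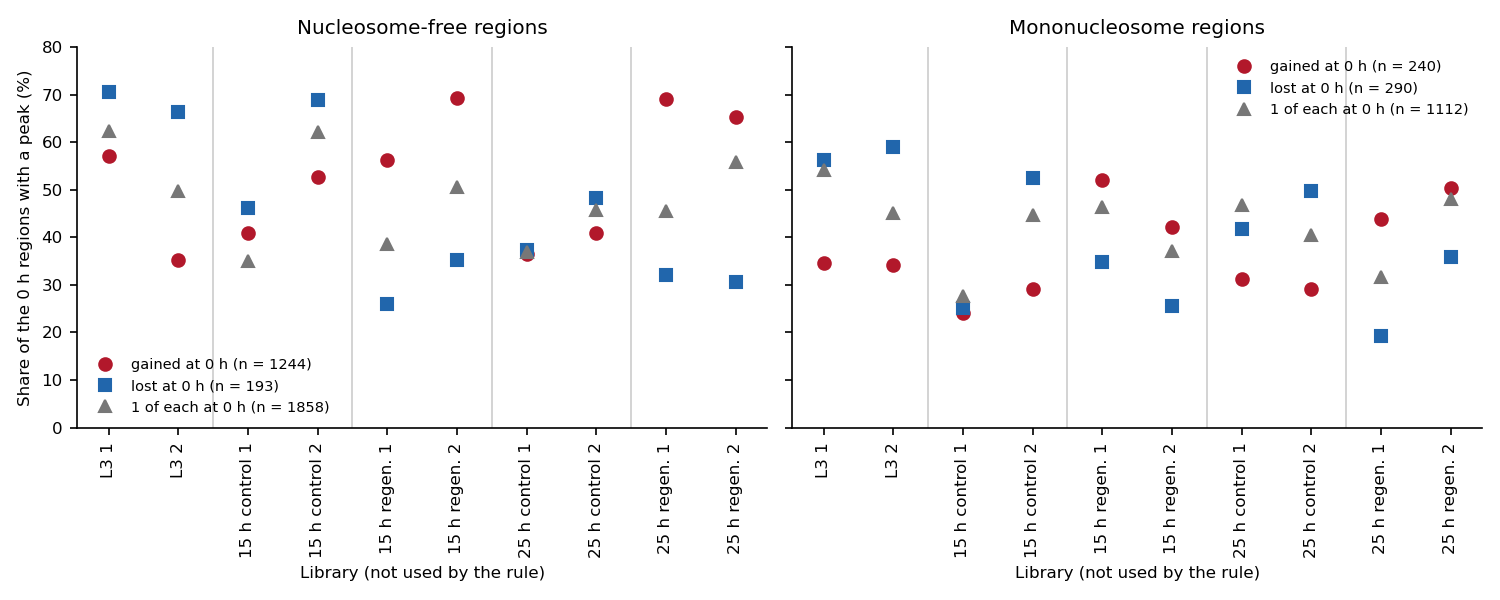
Points give the share of regions gained (red circles), lost (blue squares) or present in 1 library of each kind (grey triangles) at 0 h that had a peak in each L3, 15 h and 25 h library. Red points lie at 56.2 to 69.2% in the later regenerating libraries and at 36.4 to 52.7% in the later controls for nucleosome-free regions.

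Most regions did not keep their label, but they kept it in a larger share than over all 27435 regions. Over all, 541 regions were gained at 15 h and 1035 at 25 h, and 446 and 252 were lost. The difference in share was not tested. Of the 1244 gained regions, 145 were gained again at 15 h (11.7% of these and 26.8% of the 541 gained at 15 h) and 215 at 25 h (17.3% and 20.8% of 1035), while 26 were lost at 15 h and 11 at 25 h. Of the 193 lost regions, 35 were lost again at 15 h (18.1%) and 21 at 25 h (10.9%), and 4 (2.07%) and 11 (5.70%) were gained. The L3 libraries held 52.3% of the lost and 27.5% of the gained regions in both replicates, and 38.9% of those in 1 of each.

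Many starts of damage response genes were open in both kinds of disc at 0 h. A peak in all 4 libraries was found at 18 of 20 damage response starts, 12 of 16 JNK cascade starts and 9 of 15 apoptosis starts. Of 18164 annotated genes, non-coding ones included, 5566 had such a start. Of the 18, 1 stood higher in both regenerating libraries (mol, which acts in the maturation of the oxidase Duox) and 4 lower (chinmo, scaf, Pvr and Duox), and of the 12, 2 stood higher (the JNK gene bsk and kay) and 0 lower. Such a split was seen at 22.0% of 5566 gene starts open in all 4 libraries in the higher direction and at 10.5% in the lower. The percentiles come from lists of unequal length, so a split alone shows no change. The start of Jra, the other AP-1 gene, had no peak in control replicate 1 and stood at 15.3 in control replicate 2 and at 51.7 and 45.0 in regenerating discs. The starts of hep and slpr, kinases of the cascade, and of Gadd45 likewise lacked a peak only in control replicate 1, the shallowest library, and that of Traf6 lacked one in replicate 1 of both kinds. Lgr3, the receptor of Ilp8, and the apoptosis genes grim, skl, Dronc, Damm and Buffy had no peak at their starts in any of the 4 libraries. All 4 regions within 5000 bp of rpr, an inducer of apoptosis, had a peak in every library. The region over its start stood at the 41.7th and 52.6th percentiles of the control lists and at the 52.0th and 64.0th of the regenerating lists, which overlap. The start of hid, another inducer of apoptosis, stood at 91.1 and 84.9 in controls and 87.2 and 80.2 in regenerating discs, and a weak region 1867 bp from it was lost (percentiles 7.68 and 4.47 in the controls). The start of puc stood at 95.3 and 91.0 against 94.2 and 92.9, that of Ets21C, an ETS factor, at 90.9 and 91.3 against 92.5 and 91.3, and that of Ilp8 at 76.3 and 75.4 against 75.6 and 80.7. At the start of Mmp1 the values were 76.5 and 85.0 against 86.3 and 84.1. At these 6 starts the control and regenerating values overlapped. The start of upd3, a cytokine of the JAK/STAT pathway, was weaker in all 4 libraries, at 19.03 and 34 against 30.8 and 14.2.

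A few regions near these genes did part. A region 731 bp from the start of wg, the Wnt ligand, stood at 16.0 and 28.0 in controls and 52.1 and 46.5 in regenerating discs, without overlap, whereas the region over the start itself stood lower, at 99.7 and 98.4 against 97.7 and 98.0. At 15 and 25 h the folds of the first region were 5.62 to 7.28 in controls and 4.90 to 5.08 in regenerating discs, the opposite order. A region in a coding exon of wg (chr2L:7312926-7313164) was gained at percentiles of 34.4 and 41.2 and was found in 2 of the 4 later regenerating and 2 of the 4 later control libraries. Among the gained regions of the JNK, JAK/STAT, Wnt, Dpp and Hedgehog, and Notch and EGFR lists, the one of highest rank lay 3703 bp from upd2, a second cytokine (chrX:18239409-18239581). Its folds were 7.81 and 6.55 at 0 h, and it was found in all 4 later regenerating libraries at 4.26 to 5.02 and in both 15 h controls at 4.27 and 4.75. A region at the start of beg, within reach of Ilp8, was gained at percentiles of 38.9 and 34.3, and all 4 later controls had it. The start of w, the eye colour gene, had a weak peak in regenerating replicate 2 only at 0 h (percentile 7.93), and all 4 later regenerating and no control libraries had it.

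**Figure D5:**
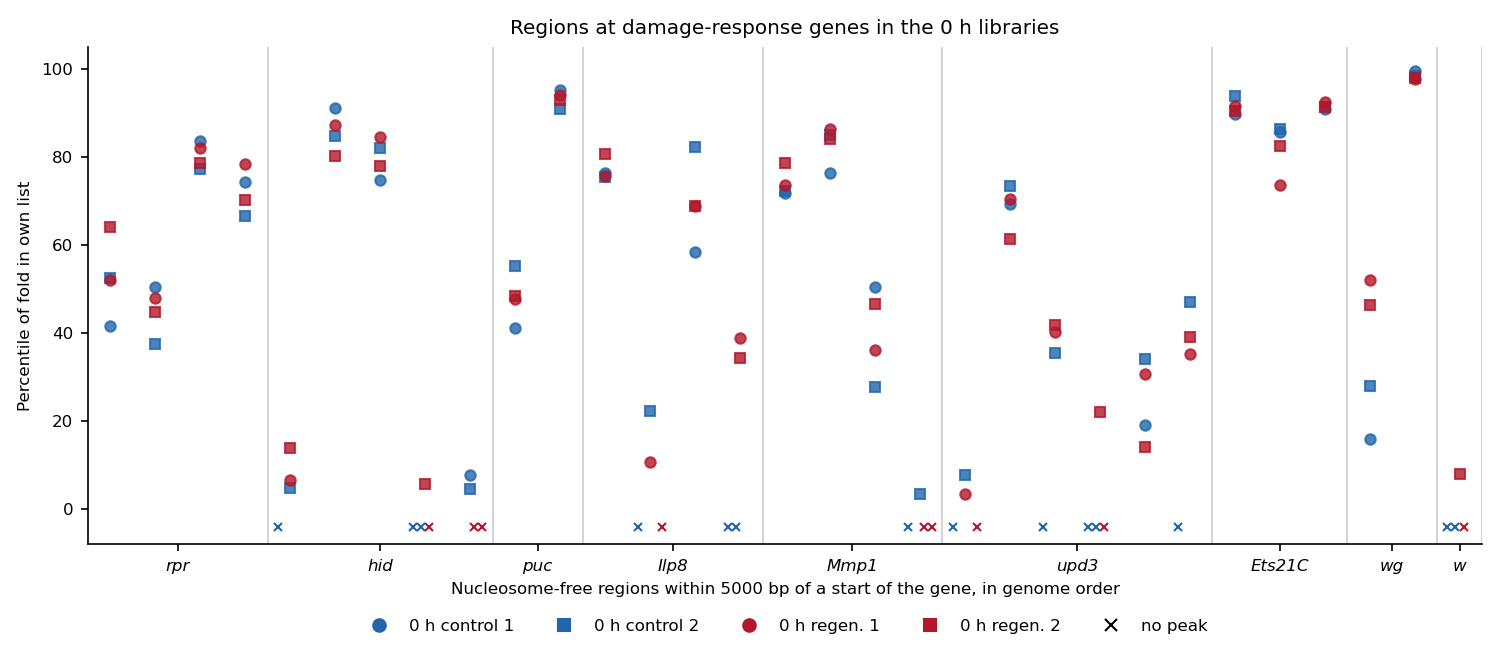
Points give the percentile of the authors' fold in its own list for each nucleosome-free region within 5000 bp of a start of the named gene, for control (blue) and regenerating (red) replicates 1 (circles) and 2 (squares) at 0 h, and crosses mark libraries with no peak. The stronger start region of puc and the starts of Ets21C and wg lie above 90 in all 4 libraries.

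Counts by pathway are read against the share over all genes. Of 10030 genes with a region nearest to one of their starts, 10.7% had a gained and 1.81% a lost nucleosome-free region. With so few genes a list, these counts do not set any list apart. Of 16 JNK cascade genes with a region 3 had a gained one (egr, the TNF ligand of the pathway, wgn, its receptor, and the kinase msn), of 19 damage response genes 4 (Mmp2, Atf3, Gadd45 and Pvr), of 8 JAK/STAT genes 1 (upd2), of 17 Wnt genes 3 (wg, Wnt10 and the receptor fz2) and 2 a lost one (Wnt4 and Wnt6), of 15 Dpp and Hedgehog genes 2 (hh and ptc), and of 14 Notch and EGFR genes 3 (Ser, vn and pnt). Of 13 apoptosis genes 0 had a gained region and 1, hid, a lost one. Of 26 wing factors 9 had a gained region (ap, Bx, pdm2, rn, salm, salr, bi, elB and ara) and 1, sd, a lost one. These genes have many regions. Counted by region, 10 of 216 wing factor regions were gained (4.63%), and 4 of 61 JNK cascade (6.56%) and 5 of 87 damage response regions (5.75%), beside 5.51% over all genes. Of 11 ecdysone response genes 3 had gained regions, Eip75B, br and Hr4, with 9 of 122 regions (7.38%). Of 20 genes of oxidative and heat stress, 2 had a gained region, cnc, the Nrf2 homologue, and the chaperone DnaJ-1, and 1, Sod2, a lost one. Of 11 Hippo and growth genes 2 had gained regions, kibra and CycE. Of 8 innate immunity genes Tl had one. Of 14 genes of the piRNA pathway and heterochromatin piwi had a gained region, at percentiles of 47.6 and 33.5, and del a lost one.

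Genes whose sequences are often built into transgenes were looked at as a group, since a construct present in 1 genotype adds reads at its source. Of 12 such genes 4 had a gained region and 0 a lost one, beside 10.7% and 1.81% of all genes, and by region 4 of 32 were gained (12.5%), beside 5.51%. Of their 21 regions with a peak in all 4 libraries, 7 ranked higher in regenerating discs. The median difference was -0.245 in normal scores of the rank, beside -0.022 over all such regions. Of 9 starts open in all 4 libraries, 1 stood higher in both regenerating libraries (salr) and 2 lower (alphaTub84B and salm). Over all starts these splits were seen at 22.0% and 10.5%. Between genes near salm, which encodes a zinc finger factor of the central wing, the region at chr2L:11431922-11432030 was gained at percentiles of 27.1 and 39.2, and its neighbour at chr2L:11428642-11428777 stood at 7.52 and 6.65 in controls and at 23.9 and 41.2 in regenerating discs, without overlap. A second neighbour at chr2L:11431500-11431721 stood at 31.1 and 35.1 against 45.4 and 69.0. At 15 h the first neighbour had folds of 4.48 and 5.07 in controls and a peak in 1 of the 2 regenerating libraries, at 5.95, and the second had 8.74 and 6.52 in controls against 5.95 and 7.67, so the order of 0 h was not kept. Regions on either side of these did not part in this way, with 60.6 and 58.6 against 38.1 and 54.2 for the one at chr2L:11418811-11419169, where control values were the higher, and 5.21 and 22.4 against 10.3 and 11.4 for that at chr2L:11432427-11432591. The gained region of salr, the paralogue of salm, was lost at 15 h. That of alphaTub84B stood at 0.46 and 1.16 and had a peak in 3 of 6 regenerating, 0 of 6 control and 2 L3 libraries. That of Hsp70Bbb lay in a Dm88 element and was gained again at 15 h, with a peak in 5 regenerating, 0 control and 0 L3 libraries. For the regenerating and control libraries the counts were 3 and 1 at the gained region of salm and 4 and 3 at that of salr. The start of w, also among these genes, had a peak in 5 regenerating, 0 control and 0 L3 libraries. The part of constructs was not tested. Hsp70 copies are near-identical, so their reads cannot be assigned with certainty.

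Marker genes of other tissues were checked. The starts of all 5 wing disc markers (nub, vg, sd, ap and hth) had a peak in all 4 libraries, as did 4 of 4 tracheal (btl, trh, vvl and bnl) and 4 of 5 myoblast markers, 1 of 6 hemocyte markers and 2 of 4 neuron and glia markers. Over all 18164 annotated genes, 5566 had such a start. Discs carry myoblasts and tracheal branches. None of the 6 fat body markers had a peak at its start in any of the 4 libraries, nor had the hemocyte genes Hml, NimC1, eater and Pxn. Several marker starts of other cell types stood apart between the groups. The start of twi had no peak in control replicate 1 and stood at 18.1 in control replicate 2 and at 53.1 and 51.3 in regenerating discs. Of the other 4, 3 stood higher in both regenerating libraries, against 22.0% of all starts, namely zfh1 (10.7 and 30.9 against 47.7 and 41.6), stumps (22.7 and 29.5 against 38.1 and 46.0) and Him (15.5 and 12.8 against 21.3 and 20.9). The start of htl, at 49.4 and 49.1 against 47.6 and 57.6, overlapped. These percentiles come from lists of unequal length, so a split alone shows no change. Of 15 myoblast marker regions with a peak in all 4 libraries, 8 ranked higher in regenerating discs over the shared regions. In the rank fit with limma described below, 0 of the 15 had an unadjusted p under 0.05. The start of repo, a glial factor, stood at 60.6 and 74.0 against 82.5 and 93.9, and that of elav, a neuronal gene, overlapped at 62.2 and 75.5 against 74.9 and 76.7. Of the tracheal starts btl stood higher (34.5 and 40.5 against 44.5 and 48.2) and 3 of 4 overlapped, as did 4 of the 5 wing disc starts. Marker regions found in at least 2 libraries were counted too. Of 23 at myoblast markers 1, at zfh1, was gained, of 24 at tracheal markers 1, at vvl, was lost, and of 8 at neuron and glia markers 1, at elav, was gained. Over all such regions 5.51% were gained and 0.855% lost, and counts of 1 region do not set any marker list apart. The part of such cells in the gained and lost regions was not tested.

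Position and motif shares are given beside those of regions in 1 of each, and their differences were not tested. Gained regions lay within 200 bp of a start in 20.0% of cases, lost ones in 17.1%, those in 1 of each in 24.2% and those in all 4 libraries in 41.3%. The AP-1 letters were within 100 bp of the summit in 4.34% of gained, 4.66% of lost and 5.38% of 1-of-each regions. Regions in all 4 libraries held them in 4.29% of cases, and all regions in 4.42%. The Scalloped letters were in 11.1, 7.77, 8.24 and 9.49% (9.60% of all), those of GAGA factor in 32.4, 37.3, 29.0 and 38.0% (34.4%), and those of STAT in 4.82, 2.59, 3.82 and 3.96% (4.11%). A match is a description of the letters and not of binding.

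Regions with a peak in all 4 libraries were compared by the rank of the authors' fold over these shared regions, as normal scores fitted with limma. Of 15727 nucleosome-free regions, 0.0% ranked higher or lower in regenerating discs at an adjusted p under 0.05 (limma, Benjamini-Hochberg), while 3.33% were higher and 2.26% lower at an unadjusted p under 0.05. In data simulated with the average real spread given to every region, the fit called 97% of nucleosome-free regions shifted by 2 normal scores and 30% of those shifted by 1. Real regions differ in spread, so these shares need not hold for them. A real difference of 2.73 normal scores, at a TART-A element, was not called. Ranks correlated at 0.846 to 0.898 between the nucleosome-free libraries, and the lowest value was that between the 2 controls. Without control replicate 2, limma called 60 regions higher and 11 lower, with the lone control assumed to vary like the regenerating libraries.

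The regions of smallest p did not pass the test, and several lay in telomeric or other elements. A TART-A element on chromosome 4 (chr4:1343408-1343956) ranked at 9.41 and 25.7 in controls and at 97.0 and 94.2 in regenerating discs (difference 2.73 ± 0.302 normal scores (SE), limma adjusted p = 0.073). An Ivk element 2320 bp from CG14770 on the X ranked at 20.0 and 16.0 against 85.6 and 87.7 (adjusted p = 0.119), and a stretch near the X tip (chrX:16112-17105) at 5.62 and 19.2 against 81.8 and 86.5. Lower in regenerating discs was an intergenic region 16861 bp from ApepP, an aminopeptidase gene (chr2L:16927279-16927860). It ranked at 94.8 and 86.4 in controls and 28.7 and 29.9 in regenerating discs (difference -1.91 ± 0.276, adjusted p = 0.119), and its mononucleosome peak at 96.4 and 90.8 against 40.4 and 20.2 (difference -2.11 ± 0.299, adjusted p = 0.112).

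Among mononucleosome regions the balance of gained and lost depended on the depth filter. Of 12951 regions with a peak in at least 2 of the 4 libraries, 240 were gained (1.85%) and 290 lost (2.24%), and 1112 had a peak in 1 of each. With the depth filter and its counting margin, 201 were gained and 132 lost when depth was judged on the genome background, and 182 and 77 on the local one. Of 8234 genes with such a region, a gained one was found for 2.79% and a lost one for 3.29%. The peak names written inside the mononucleosome lists read as nucleosome-free, so the fragment class is taken from the file and from the peak widths, whose medians were 445 to 471 bp at 0 h against 167 to 173 bp. The strongest lost region lay 199109 bp from lncRNA:flam, the transcript of a piRNA cluster that silences gypsy elements (chrX:21832545-21833080). It had folds of 33.2 and 28.7 in the 0 h controls, 25.1 to 32.7 in later controls and 27.1 and 28.2 in L3, with no peak in any regenerating library, and all of its 50-base words occurred elsewhere in the genome. An Rt1b element near CG32115 (8.46 and 7.76), the start of CG18278 (10.1 and 7.34) and an Rt1b element in an intron of CG42340 (7.86 and 5.77) had the same pattern over all 14 libraries, as had an intergenic region 438 bp from His2B:CG33908, in the repeated histone genes. Nucleosome-free peaks at 0 h did not always follow. At CG18278 they stood at percentiles of 53.6 and 60.6 in controls and higher, at 83.4 and 82.7, in regenerating discs. The lncRNA:flam region overlapped them at 99.9 and 99.8 in controls and at 24.4 in regenerating replicate 2.

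Mononucleosome gains in all 6 regenerating and none of the 6 control libraries included an intronic region of Eip75B, an ecdysone-induced receptor gene, with 4.79 and 5.56 at 0 h, and a region in the 5′ UTR of baz, a polarity gene, with 6.2 and 5.02. Both lay in sequence found once. Nucleosome-free peaks overlapped the baz region in all 4 libraries at 0 h, at percentiles of 78.4 and 91.3 in controls and 88.5 and 82.2 in regenerating discs. The Eip75B region overlapped them at 9.92 in control replicate 1 and at 50.9 and 46.5 in regenerating discs. A gained region in an intron of Pdp1, a bZIP factor gene, had 4.86 and 6.94 at 0 h and a peak in both 15 h but neither 25 h regenerating library. Nucleosome-free peaks overlapped this region too in all 4 libraries at 0 h, at 39.8 and 29.5 in controls and 44.5 and 70.1 in regenerating discs. By list, 6 of 26 wing factors had a lost mononucleosome region (ap, Bx, pdm2, elB, zfh2 and mirr), beside 3.29% of all genes. Of these 26, 1, mirr, had a gained one, beside 2.79%. These genes have many regions, and by region 6 of 142 were lost (4.23%), beside 2.24% of all regions in at least 2 libraries. The difference was not tested. Of 18 damage response genes 2, Nox and scaf, had a lost one, and of 8 JAK/STAT genes Stat92E had a gained one, too few to set either list apart. These regions were weak, with percentiles of 2.05 to 25.8 for those 3 genes. In the later libraries gained mononucleosome regions were present at 47.1% ± 4.91 in regenerating and 28.4% ± 3.01 in control discs (SD, n = 4 each, exact permutation p = 0.0556), and lost ones at 28.9% ± 7.90 and 42.2% ± 12.2 (exact permutation p = 0.222). Of 9591 regions in all 4 libraries 0.0% were called by limma, with 2.36% higher and 2.14% lower at an unadjusted p under 0.05. In data simulated with the average real spread given to every region, it recovered 97% of shifts of 2 normal scores and 13% of shifts of 1. Real regions differ in spread, and a real difference of 2.73 normal scores, at a TART-C element, was not called. Of the 1244 gained nucleosome-free regions, 46 overlapped mononucleosome peaks of both regenerating libraries and of no control, and 11 the reverse, against 1 and 15 of the 193 lost regions and 20 and 29 of the 1858 in 1 of each.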

How the data were processed

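The data were ATAC-seq peak lists of wing discs, 1 nucleosome-free and 1 mononucleosome list per library. Per the submitters' processing notes, STAR 2.4.0j, MACS2 and the dm6 build were used. The sources used here do not give fragment length limits, the peak threshold or the placement of reads from repeats. For every peak the authors deposited a fold over the caller's background (a linear ratio), a −log10 p, a −log10 q and a score, all computed library by library. Fold served to rank peaks within a list. The score served only to cut lists to equal length. Fold and p were solved for the summit pile-up and its background under the caller's Poisson model, which gave a whole-number pile-up for at least 99.78% of the peaks of each 0 h list (tolerance 0.001 in log10 p). These values cover counting error only, and PCR copies are not independent molecules.

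Regions were built and annotated with scipy 1.17.1, pandas 2.3.3 and numpy 2.4.6 under Python 3.11.15, from BDGP 6.54 of Ensembl release 115. A region belonged to the gene of the nearest transcription start, and lay at a promoter within 200 bp of one. Ranks were fitted with limma 3.58.1 in R 4.3.3, with a variance trend and Benjamini-Hochberg adjustment over all regions, and tested on simulated data. Peak presence was counted without a test, since 2 against 2 libraries are too few for an exact test to reach the threshold.

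Named regions were the 15 gained and 10 lost nucleosome-free and the 10 gained and 10 lost mononucleosome regions of highest rank (the lower percentile in the 2 lists that hold a region), the 5 of smallest p each way, up to 4 gained or lost regions per gene list, and all nucleosome-free regions within 5000 bp of rpr, hid, puc, Ilp8, Mmp1, upd3, Ets21C, wg and w. Names in lists of constant regions and of element families were picked after their values were seen. Of 248 listed symbols, 1 was matched through an older name and 2 were not used. The comparison, lists and rules were chosen with earlier results of these data known. Alternatives were stricter peaks, equal lists, another merge, coverage of the region, depth filters, a replicate block, other values for the rank fit, and leaving out each library. The crossed replicate block and the depth filters with a counting margin were added after the data had been seen, as was the count of gene starts whose percentiles did not overlap between the groups.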

Additional observations from a re-analysis of the deposited data

Results flagged for a closer look

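Some named regions were parted 1 way at 0 h and the other way at a later time, with every library of the groups on its side. The differences between times were not tested. Lost at 0 h and gained at 25 h were nucleosome-free regions at the starts of Sod2 (lower percentile of the 0 h control lists 53.6) and Nufip (49.4) and in a 1360 element near del (9.02). Gained at 0 h and lost at 15 h were regions near salr (lower percentile of the 0 h regenerating lists 21.3), in introns of msn (2.87), Pvr (4.71) and Ser (5.16), and near wgn (0.35). Sod2 and Nufip are the only ones of these in the upper part of the lists. Of the 1244 gained regions 26 were lost at 15 h (2.09%) and 11 at 25 h (0.88%). Over all 27435 regions, 446 and 252 were lost at these times. Of the 193 lost regions 4 were gained at 15 h (2.07%) and 11 at 25 h (5.70%), where 541 and 1035 of all regions were gained. Apart from the 5.70%, these shares lie near those over all regions.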

How the results depend on the processing

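The counts of gained and lost regions depended on depth and list length. With equal lists the nucleosome-free counts were 587 gained and 432 lost. The depth filter with a counting margin left 443 gained and 148 lost when it used the genome background, and 144 and 118 when it used the local one, and for mononucleosome regions 201 gained and 132 lost, and 182 and 77, where all peaks gave 240 and 290. Without each library in turn, nucleosome-free regions gained ranged from 2057 to 3333 and lost from 361 to 1449, and mononucleosome regions from 452 to 995 and from 449 to 1192, since 3 libraries set a weaker condition. Stricter q, the merge of 14 libraries, coverage of the region and the depth filters without a margin kept each count within 1.5 times. The rank fit called 9 nucleosome-free regions higher and 4 lower with centred log2 folds and 2 and 1 with ranks of −log10 p, and 3 and 4 mononucleosome regions higher in the same fits. With a replicate block it called 0 and 0 nucleosome-free regions, and 4 mononucleosome regions higher and 1 lower. Same-numbered replicates deviated in opposite directions (correlation -0.13 and -0.245), and with the pairing crossed 64 and 34 nucleosome-free and 10 and 3 mononucleosome regions were called. Without 1 library the rank fit called 0 to 60 nucleosome-free regions higher and 0 to 11 lower, most of them without control replicate 2, and 1 to 3 and 0 to 2 mononucleosome regions, the lone library of a group being assumed to vary like the others. The cause of these changes was not tested. With 500 bp as the limit, 30.3% of gained regions lay at promoters. The differences in later presence kept their direction with equal lists. A missing peak means that a region did not pass the authors' threshold at that depth, not that it was closed.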
